A study of Mus musculus with 57 samples.

Results

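The spleens of CA10 mice that showed no clinical signs of leukemia were compared with the spleens of wild-type mice. The CA10 transgene is vav-CALM-AF10, in which the vav promoter, active in blood-forming cells, drives the fusion gene. The 7 arrays were chosen by genotype, tissue and clinical state in the sample labels, and they were 5 CA10 and 2 wild-type spleens among the 57 arrays of the series, which also covers marrow, thymus and leukemic spleen. Wild-type tissue came from litter mates of matching age where possible, none of the mice was treated, and no age, sex or strain was given for these 7 arrays. Signs of leukemia in the series were a hunched or thin body or an abnormal blood count, and the CA10 group is defined by their absence, with no examination of the tissue itself described. Whether the arrays stand for separate mice is not stated, so any p-value refers to array-to-array spread, which may be technical.

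CALM-AF10 joins an adaptor of clathrin coats to AF10, a protein that helps bring the histone methyltransferase DOT1L to chromatin, and leukemias with this fusion are known for high expression of the HOXA genes. HOXA proteins are homeobox transcription factors that are active in blood stem and progenitor cells and are shut down as the cells mature, and MEIS and PBX proteins bind DNA together with them. The spleen holds white pulp, made up of B and T cells, and red pulp, with macrophages, red cell precursors and, in the mouse, some granulocyte precursors.

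Hoxa9 had the widest difference between the groups of all genes, and Meis1 came second among those higher in CA10. Hoxa9, the best studied leukemia gene of the HOXA cluster, had log2 signals of 9.70, 8.11, 9.04, 8.13 and 7.89 in CA10 spleens 1 to 5, against 4.27 and 3.96 in wild-type spleens 1 and 2. Every CA10 array lay at least 3.62 log2 units above the higher wild-type array. The difference in means was 4.46 ± 0.72 log2 units (SE, n = 5 and 2), and its adjusted p was 0.134 in limma over 15310 genes. Both wild-type values lay under the 40th percentile of their arrays, 4.98 to 5.07 on these 7 arrays, which was taken here as the limit of low signals, so the wild-type level is only a bound. With signals under that limit raised to it, Hoxa9 was higher in CA10 by at least 3.50 ± 0.75 log2 units, or at least 11.4-fold, with an adjusted p of 0.575 in limma. On the signals as deposited neither Hoxa9 nor any other gene passed the threshold of 0.05. In the exact permutation test over the 21 ways to choose 2 of 7 arrays the one-sided p was 0.0476, the smallest that 21 splits allow. Doubled to cover both directions it was 0.0952. A second Hoxa9 probe set gave 6.85, 6.86, 7.61, 7.01 and 6.79 in CA10, against 6.35 and 6.75 in wild type. On that probe set the CA10 arrays were again all higher, but the difference was 0.47 ± 0.42 log2 units, so the size of the difference depends on which probe set is read.

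Meis1, which encodes a HOX cofactor, had log2 signals of 8.29, 7.79, 9.26, 8.95 and 7.91 in CA10 spleens 1 to 5, against 6.46 and 6.21 in wild type. The groups did not overlap. The difference was 2.10 ± 0.85 log2 units, or 4.29-fold, with an unadjusted p of 0.0241 and an adjusted p of 1.00 in limma. Its second probe set differed by 2.09 ± 0.94 and its last, which was dim, by 0.13 ± 0.17. Hoxa9 and Meis1 did not have the same order over the CA10 arrays, since Hoxa9 was highest in CA10 spleen 1 and Meis1 in CA10 spleen 3.

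The promoters of both genes are shown because these genes stood highest in the difference. The sequences are the 250 bases before the gene start in RefSeq (GRCm38.p6), at chr6:52227371-52227620 for Hoxa9 and chr11:19018970-19019219 for Meis1, both on the minus strand and written 5′ to 3′. Capitals mark matches on either strand of 5 motifs searched: TGACAG, bound by MEIS proteins, TGATTTAT, bound by HOX and PBX together, GAGGAA, the core bound by PU.1, the GC box GGGCGG, and CCAAT. No letters of the motifs shown overlap.
Hoxa9: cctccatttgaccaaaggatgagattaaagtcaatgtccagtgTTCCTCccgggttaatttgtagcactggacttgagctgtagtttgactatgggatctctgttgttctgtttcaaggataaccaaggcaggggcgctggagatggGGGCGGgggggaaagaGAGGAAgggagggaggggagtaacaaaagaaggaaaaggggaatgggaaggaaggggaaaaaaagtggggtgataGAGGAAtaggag
Meis1: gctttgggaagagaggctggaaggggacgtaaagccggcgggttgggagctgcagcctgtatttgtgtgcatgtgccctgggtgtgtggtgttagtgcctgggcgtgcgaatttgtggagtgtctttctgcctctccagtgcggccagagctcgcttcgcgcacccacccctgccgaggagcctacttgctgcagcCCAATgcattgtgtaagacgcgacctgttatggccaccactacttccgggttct
The Hoxa9 window held GAGGAA at 3 places, once as its complement, and GGGCGG at 1 place. The Meis1 window held CCAAT at 1 place. Of 32851 promoters of this length, 23.3% held GAGGAA, 32.7% held GGGCGG and 33.8% held CCAAT. Neither window had a match of TGACAG, which was found in 15.9% of promoters, or of TGATTTAT, found in 0.837%. The Hoxa9 window had 3 CG pairs and the Meis1 window 13, against a median of 6 over all promoters.

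**Figure D1:**
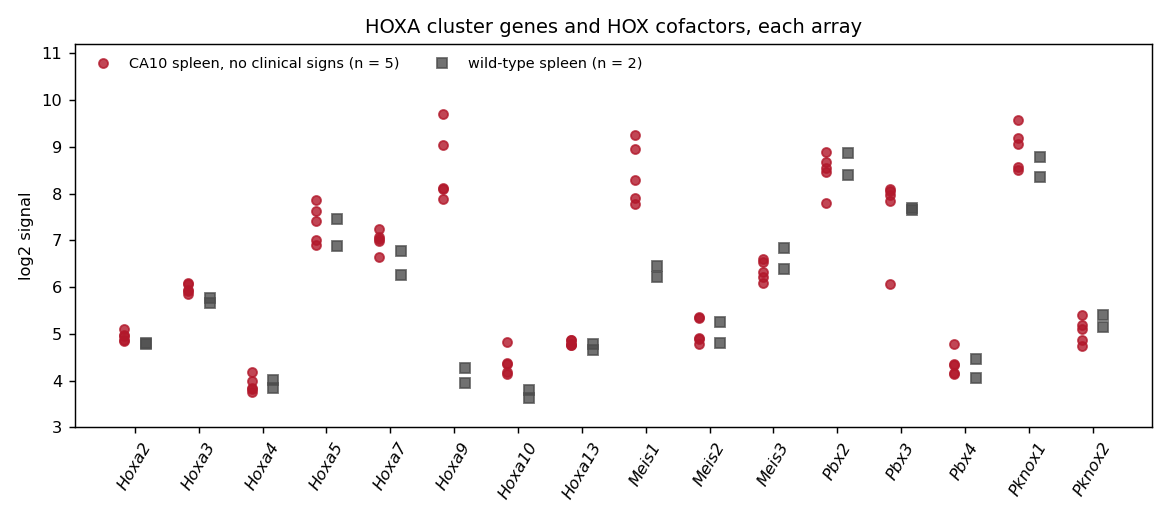
Log2 signals of HOXA cluster genes and of the HOX cofactor families MEIS, PBX and PKNOX in CA10 spleens without clinical signs (red circles, 5 arrays) and wild-type spleens (grey squares, 2 arrays), 1 point per array. Hoxa9 and Meis1 show wide gaps between the groups, Hoxa10 a narrower one at signals under the limit of low signals, and Pbx3 has 1 CA10 array at 6.08.

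Among the other HOXA genes the differences were small. Of 11 genes listed for the cluster, 9 were on the table and 8 passed the filter on low signals, and 4 of the 8 were higher in all CA10 arrays than in both wild-type arrays, where 4.22% of all genes tested were. Their median difference was 0.22 log2 units, against 0.03 over all genes. Besides Hoxa9, the 4 were Hoxa10 (0.67 ± 0.60), Hoxa3 (0.25 ± 0.12) and Hoxa2 (0.16 ± 0.22). Hoxa10, Hoxa4 and Hoxa13 were under the limit of low signals on all 7 arrays, and Hoxa2 on 4 of 5 CA10 and 2 of 2 wild-type arrays, so these values carry no fold. Hoxa10, another gene of blood progenitors, was at 4.83, 4.36, 4.37, 4.19 and 4.13 in CA10 and 3.79 and 3.63 in wild type, and its other probe set gave a difference of −0.18 ± 0.14. Hoxa7 lay at 6.65 to 7.24 in CA10 and at 6.26 and 6.76 in wild type (0.48 ± 0.32), with 1 CA10 array between the wild-type arrays. Hoxa5 overlapped between the groups on its brighter probe set (0.20 ± 0.28). On its second probe set Hoxa5 read 6.87, 7.25, 7.16, 7.36 and 7.80 in CA10, against 5.67 and 5.93 in wild type, a difference of 1.49 ± 0.67 without overlap. The HOXB, HOXC and HOXD clusters had 6, 5 and 3 genes that passed the filter, none higher without overlap, and medians of 0.04, −0.09 and 0.09. Among them Hoxc5 was lower without overlap on its brightest probe set (−0.25 ± 0.33). There it was under the limit of low signals on all 7 arrays. Another Hoxc5 probe set was higher without overlap (0.43 ± 0.30), also under that limit. It read 4.07, 4.79, 4.35, 4.26 and 4.19 in CA10, against 3.85 and 3.94 in wild type. The remaining Hoxc5 probe set differed by 0.03 ± 0.39, so the direction for Hoxc5 depends on which probe set is read.

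Apart from Meis1, none of the 8 HOX cofactor genes tested separated the groups. Pknox1, which encodes another partner of HOX proteins, differed by 0.41 ± 0.26, and Meis2, Meis3, Pbx2, Pbx4 and Pknox2 lay between −0.27 and 0.10. Pbx3, a PBX cofactor, read 7.97, 8.10, 6.08, 7.84 and 8.05 in CA10 and 7.64 and 7.69 in wild type. It was thus slightly above wild type in 4 CA10 arrays and well below it in CA10 spleen 3. Mllt10, the mouse gene of AF10, differed by −0.10 ± 0.39, with 9.04 to 9.51 in CA10 and 9.28 and 9.39 in wild type. Its neighbours on mouse chromosome 2 also overlapped between the groups, among them Bmi1, a Polycomb gene of stem cell renewal (0.00 ± 0.29), and Commd3 (0.33 ± 0.21). Of 12 genes listed for the DOT1L complex and transcript elongation, Aff1, an elongation factor gene, was higher in CA10 without overlap (0.31 ± 0.24). Over all genes tested 4.22% were, and the median of the 12 was 0.05.

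The same 2 genes were also set against CA10 and wild-type arrays of other tissues. In thymus Hoxa9 averaged 9.32 ± 2.54 log2 units in CA10 (SD, n = 4) and 3.90 ± 0.23 in wild type (n = 7). In lineage-negative marrow, which is depleted of mature cells, it averaged 9.98 ± 0.07 in CA10 and 7.82 ± 0.58 in wild type (n = 3 each), and in whole marrow 7.77 ± 0.13 in CA10 (n = 3) and 5.70 ± 0.66 in wild type (n = 6, without the marrows labelled C57B6). Wild-type Hoxa9 was under the limit of low signals in 2 of 2 spleens, 7 of 7 thymuses and 2 of 6 whole marrows, and in none of the lineage-negative marrows (0 of 3). The CA10 difference in Hoxa9 was therefore at least 3.50 in spleen and at least 4.34 in thymus with low signals raised to the limit, beside 2.16 in lineage-negative marrow and at least 2.04 in whole marrow. Bounds do not give the size of a difference between tissues. As fitted on the signals as deposited, the spleen difference minus that of the other tissue had an adjusted p of 1.00 for thymus, 1.00 for lineage-negative marrow and 0.888 for whole marrow in limma. For Meis1, which was above the limit on all of these arrays, the CA10 difference was 2.10 in spleen, 2.18 in thymus, 1.01 in lineage-negative marrow and 0.93 in whole marrow. None of these differences between tissues passed the test, and their errors are too wide to show that the effects were alike. The whole marrow differences of both genes rest on 6 wild-type arrays whose medians fell into separate ranges, as given below.

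**Figure D2:**
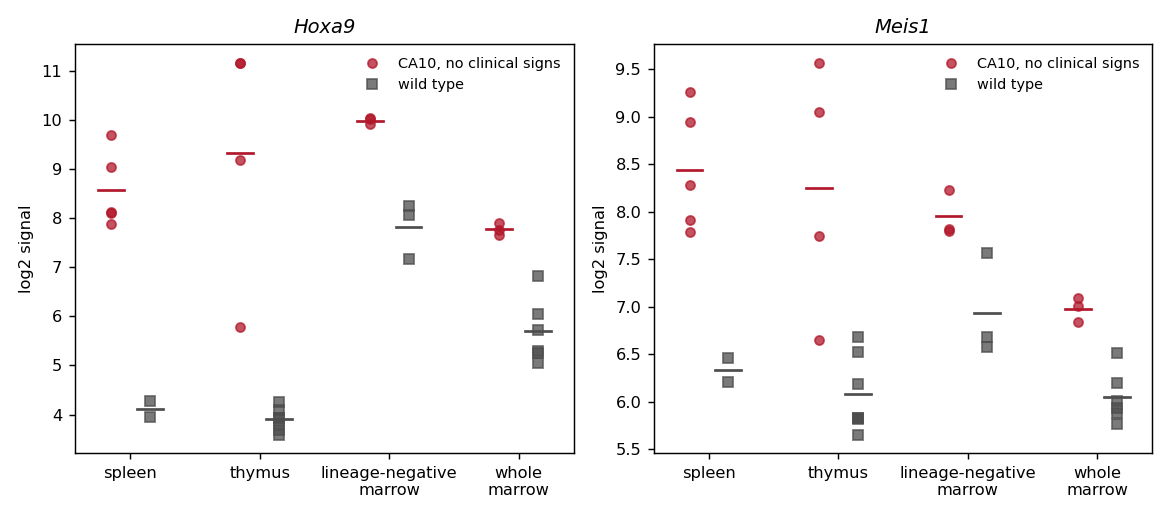
Log2 signals of Hoxa9 (left) and Meis1 (right) in CA10 tissues without clinical signs (red circles) and wild-type tissues (grey squares), 1 point per array with the group mean as a line; the vertical scales do not start at 0. In spleen all CA10 points lie above the wild-type points, and wild-type Hoxa9 is lowest in thymus and spleen.

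Over all genes the comparison gave no call, with 0% of 15310 genes past an adjusted p of 0.05 in limma. An unadjusted p below 0.05 was found for 387 genes (2.53%), of which 200 were higher (1.31%) and 187 lower (1.22%) in CA10. The arrays of the groups did not overlap for 1079 genes (7.05%), with 646 higher (4.22%) and 433 lower (2.83%). Most differences were small. A size of at least 1 log2 unit was reached by 145 genes and of at least 2 by 6, which were Hoxa9, Meis1 and the neutrophil protease gene Ctsg on the higher side and Car3, Adipoq and Xist on the lower.

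**Figure D3:**
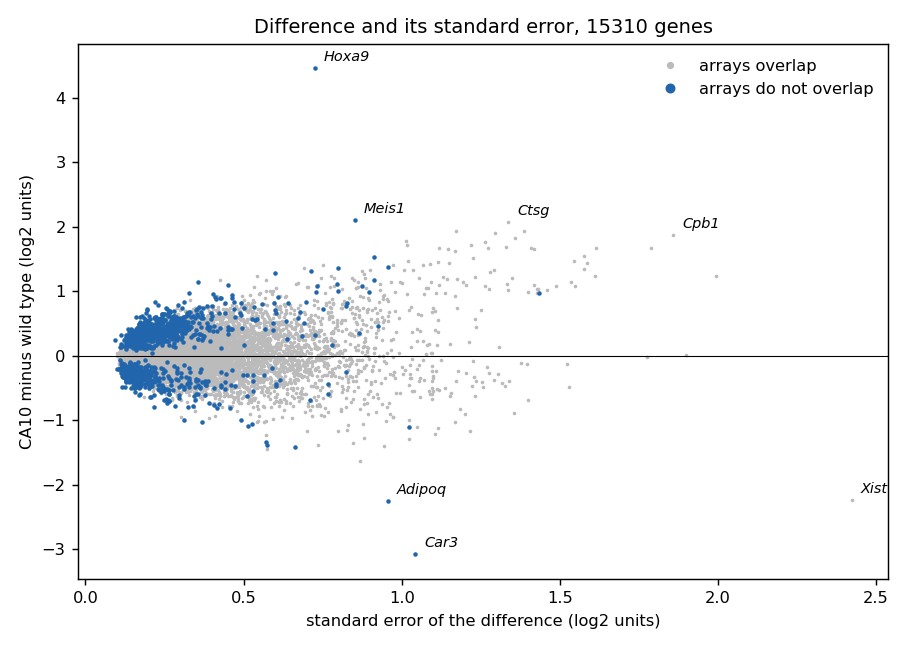
Difference of CA10 minus wild-type spleen (vertical axis, log2 units) against its limma standard error (horizontal axis, log2 units), 1 point per gene for 15310 genes, with blue points for genes whose CA10 and wild-type arrays do not overlap. Hoxa9 stands alone at 4.46 with an error of 0.72, its wild-type values under the limit of low signals, while Ctsg, Cpb1 and Xist have overlapping arrays and wide errors.

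The arrays did not overlap and the difference was at least 1 log2 unit for 14 genes higher in CA10, of which 12 are named here. Hoxa9 and Meis1 are described above. Flt3, a growth factor receptor gene of progenitors, read 9.75, 8.16, 10.85, 7.87 and 8.08 in CA10, against 7.76 and 7.78 in wild type (1.17 ± 0.91). CA10 spleens 1 and 3 carried most of that difference, and CA10 spleen 4 was barely above the higher wild-type array. Ccr2, the receptor gene that draws monocytes into tissue, read 9.89, 7.95, 8.19, 7.71 and 7.66, against 7.14 and 7.26 in wild type (1.08 ± 0.73). Ccr1, another chemokine receptor gene of myeloid cells, differed by 1.38 ± 0.96, Ms4a6d, a macrophage gene, by 1.12 ± 0.80, and Cebpd, a transcription factor gene of the myeloid lineage, by 1.31 ± 0.71. The second probe set of Cebpd, which was dim, differed by 0.11 ± 0.25. Ifi202b, an interferon-inducible gene, read 10.07, 7.52, 8.73, 7.32 and 7.23 in CA10, against 6.79 and 6.99 in wild type (1.29 ± 0.60). In all of these genes CA10 spleen 1 or 3 was the highest array. Sgf29, which encodes a chromatin reader of histone acetylation complexes, differed by 1.15 ± 0.35, with the lowest CA10 array at 8.02 and wild-type arrays at 6.82 and 7.997. Smim4 (1.10 ± 0.45), Gpc1, a cell surface proteoglycan gene (1.53 ± 0.91), and Iftap (1.01 ± 0.80) were the other three, and the 3 remaining probe sets of Iftap gave differences between −0.30 and −0.03.

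Genes that were lower in every CA10 array included genes of connective tissue and fat. Dcn, the gene of the matrix proteoglycan decorin, read 6.20, 7.48, 8.49, 8.71 and 8.65 in CA10, against 9.17 and 9.30 in wild type (−1.33 ± 0.57). CA10 spleen 1 was far below the rest, and CA10 spleens 3 to 5 were the nearest to wild type. Another Dcn probe set gave a difference of 0.00 log2 units. Mfap4 (−1.002 ± 0.31) and Mfap5 (−1.03 ± 0.37), genes of elastic microfibrils, Efemp1, a matrix gene (−1.42 ± 0.66), and Myl9, a smooth muscle myosin gene (−1.10 ± 1.02), were also lower without overlap. Slamf6, a receptor gene of lymphocytes, differed by −1.05 ± 0.53, Rabif by −1.39 ± 0.57 and Phxr4 by −1.08 ± 0.51. Of 18 stromal and vessel genes tested, 3 were lower without overlap, where 2.83% of all genes were, and the other two were Kdr, a receptor gene of blood vessel lining (−0.53 ± 0.26), and Nkx2-3, a homeobox gene of spleen stroma (−0.23 ± 0.22). Only 1 other gene than Hoxa9 had an unadjusted p below 0.001, and that was Pla2g3, a secreted phospholipase gene (−0.48).

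The CA10 spleens differed far more among themselves than the wild-type pair did. Their values spanned at least 2 log2 units for 709 genes, while the wild-type arrays were that far apart for 13, and a range over 5 arrays is wider than a difference of 2 by its construction. Genes of myeloid primary granules, the stores of proteases and peroxidase made by young granulocytes, were among those with a wide spread. Mpo, the gene of myeloperoxidase, read 13.01, 9.76, 12.97, 7.67 and 7.23 in CA10, against 8.21 and 8.71 in wild type. Ctsg, the gene of cathepsin G, read 12.63, 8.98, 11.78, 6.52 and 6.47, against 7.32 and 7.08 in wild type. CA10 spleens 1 and 3 were thus more than 4 log2 units above wild type in both genes, spleen 2 was above it by less, and spleens 4 and 5 were below both wild-type arrays. Prtn3, another protease gene, and Ms4a3, a gene of granulocyte precursors, were likewise highest in CA10 spleens 1 and 3 and lowest in 4 and 5.

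For the 8 primary granule genes tested the median level was 11.62, 9.04, 11.24, 7.00 and 6.89 in CA10 spleens 1 to 5, against 7.91 and 7.95 in wild type. All 8 differences in means were above 0 and their median was 1.43, but none separated the groups. The median difference, like a mean, hides that 5 of the 8 genes were below both wild-type arrays in CA10 spleens 4 and 5 each, while 8 and 7 were above both in CA10 spleens 1 and 3. Over all genes tested, 28.9% and 35.4% were below both in CA10 spleens 4 and 5, and 45.2%, 38.3% and 41.8% above both in CA10 spleens 1 to 3. The 14 late granule genes of maturing neutrophils had medians of 11.18, 9.76, 11.01, 8.25 and 7.47 in CA10, against 8.23 and 8.69 in wild type. Of these 14 genes, 13 were above both wild-type arrays in each of CA10 spleens 1, 2 and 3, and 10 and 12 were below both in CA10 spleens 4 and 5. Cd177, a neutrophil surface gene, read 10.40, 7.16, 10.09, 5.44 and 5.26, against 6.09 and 6.17 in wild type. In bulk tissue, more cells of a type and more RNA per cell cannot be told apart, here and for the other cell type lists. RNA quality differed too, since the 3′ minus 5′ control signal of Gapdh was 2.09, 0.27, 0.58, 0.14 and 0.55 in CA10 spleens 1 to 5 and 0.57 and 0.37 in wild type. The same control for Actb was 2.58, 0.57, 1.64, 0.59 and 0.89 in CA10 and 0.91 and 0.67 in wild type. CA10 spleen 1 was highest in both controls, and CA10 spleen 3 came next, clearly in Actb and only narrowly in Gapdh. These were also the arrays with the highest granule gene levels, and the part of RNA quality in these levels was not tested.

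Monocyte and macrophage markers had medians of 9.60, 8.34, 8.61, 7.79 and 7.69 in CA10, against 7.55 and 7.63 in wild type, so that all CA10 medians were above both wild-type medians. The gap was small in CA10 spleen 5. Above both wild-type arrays were 17, 12, 10, 9 and 6 of the 18 genes in CA10 spleens 1 to 5, and below both 0, 2, 4, 5 and 7. Of all genes tested, 32.6% were above both and 35.4% below both in CA10 spleen 5. Of 18 genes, 3 were higher without overlap, where 4.22% of all genes tested were, and the median difference was 0.70. They were Ccr2 on its brightest probe set, Lgals3 and Cd14. Lgals3, the gene of galectin-3, read 12.53, 10.85, 11.70, 10.78 and 10.59, against 10.55 and 10.21 in wild type. Cd14, a receptor gene for bacterial lipopolysaccharide, read 9.32, 8.15, 7.80, 7.52 and 7.60, against 7.09 and 7.07. F13a1, a clotting factor gene of monocytes, read 12.43, 8.52, 10.90, 7.08 and 7.59, against 7.50 and 7.75. Genes of red pulp macrophages had a median difference of −0.02. Within that list Timd4, a receptor gene for dying cells, was 4.64 in CA10 spleen 3 and 6.96 to 9.20 in the other CA10 arrays, against 8.85 and 9.22 in wild type.

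Genes listed for HOX-linked leukemia and for progenitors had no common direction over the arrays. Myb, a transcription factor gene of dividing progenitors, read 11.09, 9.70, 11.43, 9.09 and 9.01 in CA10, against 9.37 and 8.86 in wild type (0.95 ± 0.55). Sox4, a transcription factor gene linked to leukemia, read 10.64, 8.64, 11.43, 8.64 and 8.56, against 8.35 and 8.59 in wild type. CA10 spleens 1 and 3 were the highest arrays in both genes. Trib2, a pseudokinase gene of the same list, ran the other way, at 7.50, 9.03, 7.35, 9.30 and 9.45 in CA10, against 8.94 and 9.50 in wild type. Of the 17 genes listed for HOX-linked leukemia, 10 had a difference above 0 and 7 below, and their median was 0.10. The 16 stem and progenitor markers had a median difference of 0.24, 11 above 0 and 5 below, and CA10 spleen 3 was the highest CA10 array in 8 of them and the lowest in 3. Among these 16 markers Flt3 was the 1 gene that was higher without overlap, where 4.22% of all genes tested were. In the 6 leukemic CA10 spleens of the series Myb averaged 11.06 ± 0.48 (SD), Flt3 9.66 ± 0.53 and Mpo 12.23 ± 0.92, and CA10 spleens 1 and 3 lay within the leukemic range of Mpo, 10.97 to 13.35.

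**Figure D4:**
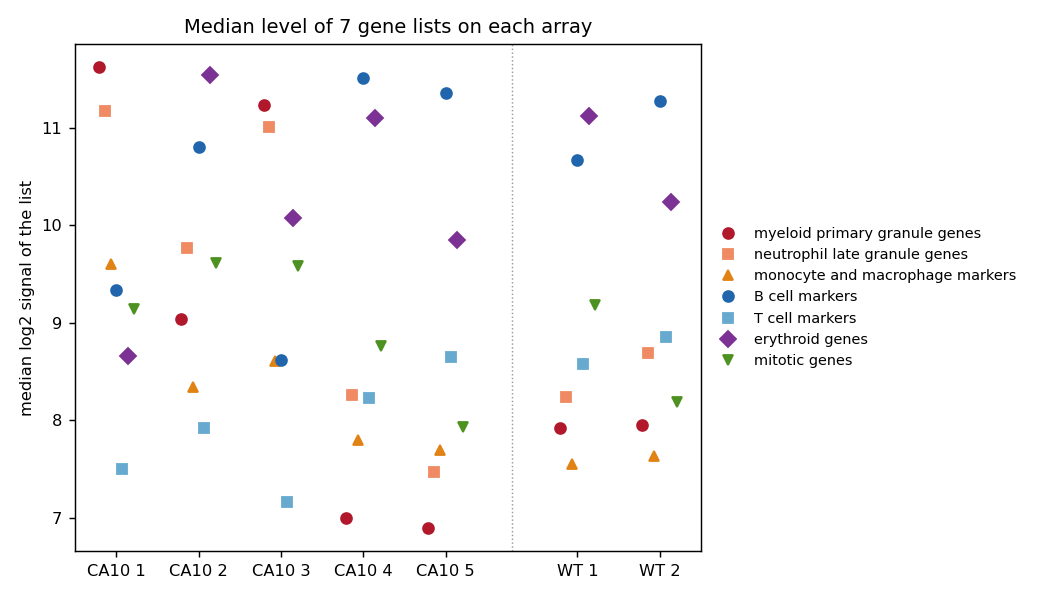
Median log2 signal of 7 gene lists (vertical axis) on each of the 5 CA10 spleens without clinical signs (left of the dotted line) and the 2 wild-type spleens (right of it), 1 point per list and array. Granule genes (red and orange) are high and B cell markers (blue circles) low in CA10 1 and 3, whereas CA10 4 and 5 have the reverse order and lie near the wild-type arrays.

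B cell markers ran the other way. Cd79a, a signalling chain gene of the B cell receptor, read 9.37, 11.26, 9.12, 12.77 and 12.50 in CA10, against 11.96 and 12.64 in wild type (−1.29 ± 1.02). Cd22, a coreceptor gene, read 10.18, 12.10, 9.71, 12.44 and 12.29, against 12.33 and 12.67. CA10 spleens 1 and 3 were low in both genes and CA10 spleens 4 and 5 were near wild type. All 19 B cell markers tested were lower in CA10 by their means, with a median of −0.83, and none passed the test or separated the groups. In CA10 spleens 1 and 3 all 19 were below both wild-type arrays, in CA10 spleen 2 it was 14, in CA10 spleen 4 it was 0 and in CA10 spleen 5 it was 1. Of all genes tested, 33.3%, 31.2%, 34.0%, 28.9% and 35.4% were below both wild-type arrays in CA10 spleens 1 to 5. Above both wild-type arrays were 14 of the 19 B cell markers in CA10 spleen 4 and 8 in CA10 spleen 5, where 33.5% and 32.6% of all genes were. Precursor B cell genes had a mixed pattern. Of 11 tested, 2 were higher and 1 lower without overlap, where 4.22% and 2.83% of all genes tested were. Vpreb1, a chain gene of the precursor receptor, was higher (6.99, 5.70, 5.29, 5.11 and 5.03, against 4.65 and 4.84). It was under the limit of low signals on 2 of 2 wild-type arrays. Rag1, a recombinase gene, was the other, at 6.54 in CA10 spleen 3 and 4.10 to 4.38 in the others, against 4.09 and 3.81. Rag1 was under the limit on 4 of 5 CA10 and 2 of 2 wild-type arrays. Lef1, a transcription factor gene of lymphocytes, was lower (−0.79 ± 0.28).

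T cell markers were lower by their means in all 17 genes tested, with a median of −0.56, and Cd3e, a chain gene of the T cell receptor complex, separated the groups (7.50, 8.24, 7.26, 8.14 and 8.09 in CA10, against 8.73 and 8.33 in wild type). Cd3e was the 1 marker of the 17 that was lower without overlap, where 2.83% of all genes tested were. Their median levels were 7.50, 7.92, 7.16, 8.22 and 8.64 in CA10, against 8.58 and 8.85 in wild type. Cxcl13, the chemokine gene that draws B cells into follicles, read 7.08, 9.72, 8.44, 10.86 and 11.17, against 11.09 and 11.07 (−1.63 ± 0.87). It was low in the same arrays that were low in B cell markers. MHC class II genes (median −0.27), NK and cytotoxic genes (−0.09), dendritic cell genes (0.07), plasma cell genes (0.08) and germinal centre genes (0.02) had smaller medians. Within CA10 the arrays still differed. Of 9 MHC class II genes, 8 and 9 were below both wild-type arrays in CA10 spleens 1 and 3, and 7 above both in CA10 spleen 4. Of 12 plasma cell genes, 9 were below both in CA10 spleen 3 and 11 above both in CA10 spleen 4. Over all genes, 33.3% and 34.0% were below both in CA10 spleens 1 and 3, and 33.5% above both in CA10 spleen 4. CA10 spleen 4 was also the array with a median of 12.31 for exocrine pancreas genes. The part of that in its plasma cell counts was not tested.

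Red cell and cell cycle genes divided the arrays in another way. Erythroid genes had medians of 8.66, 11.54, 10.08, 11.10 and 9.84 in CA10, against 11.13 and 10.23 in wild type, and Kel, a red cell surface gene, was 7.20 in CA10 spleen 1 and 10.87 in CA10 spleen 2. Mitotic genes had medians of 9.14, 9.61, 9.58, 8.76 and 7.93, against 9.19 and 8.18. CA10 spleen 5 was lowest in 18 of the 19 mitotic genes among CA10 arrays, and the wild-type arrays were themselves about 1 log2 unit apart, so neither list separated the groups. The 15 megakaryocyte genes had a median difference of −0.31, with median levels of 9.98, 9.63, 9.10, 8.32 and 8.38 in CA10, against 9.30 and 9.47 in wild type. In CA10 spleen 1, 14 of them were above both wild-type arrays, and in CA10 spleens 4 and 5, 14 and 15 were below both, where 45.2% of all genes were above both in CA10 spleen 1 and 28.9% and 35.4% below both in CA10 spleens 4 and 5. Sterol synthesis genes had a median of 0.32, with 12 of 13 genes above 0, where 8541 of all 15310 genes were. Their median levels were 8.07, 7.51, 7.77, 6.96 and 7.09 in CA10, against 7.12 and 7.08 in wild type. In CA10 spleen 4, 8 of the 13 were below both wild-type arrays and 0 above both, so the difference in means rests on CA10 spleens 1 to 3. Of 19 interferon response genes, 3 were higher in CA10 without overlap, beside 4.22% of all genes, and Ifi202b, Bst2 and Usp18 were those genes, with a list median of 0.33. Among 19 immediate early genes Btg2, an antiproliferative gene, was lower (−0.75 ± 0.42) and Myc, a growth gene, higher (0.66 ± 0.44) without overlap. Of all genes tested, 2.83% were lower and 4.22% higher without overlap.

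Some of the widest differences came from single arrays and from genes that blood cells hardly use. Genes of exocrine pancreas, which makes digestive enzymes and lies next to the spleen, had a median level of 12.31 in CA10 spleen 4, while the other CA10 arrays lay at 4.82 to 5.09 and wild type at 4.90 and 4.68. Cpb1, a carboxypeptidase gene, read 4.64, 4.49, 4.67, 12.62 and 4.23 in CA10, against 4.33 and 4.19 in wild type. All 13 pancreas genes tested were highest in CA10 spleen 4, and their median difference was 1.10 with that array and −0.01 without it. Fat cell genes were high in wild-type spleen 2. Adipoq, the gene of adiponectin, read 4.01, 3.72, 4.43, 4.07 and 3.50 in CA10, against 4.57 and 7.83 in wild type (−2.26 ± 0.96), with wild-type spleen 2 the 1 array above the limit of low signals. Car3, a carbonic anhydrase gene abundant in fat and muscle, read 5.93, 5.86, 5.96, 5.68 and 4.88, against 6.86 and 10.63 (−3.08 ± 1.04). The 8 fat cell genes had medians of 5.16 to 5.52 in CA10, against 5.52 and 7.31 in wild type, with a median difference of −0.32. Without wild-type spleen 2 that difference was −0.14.

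**Figure D5:**
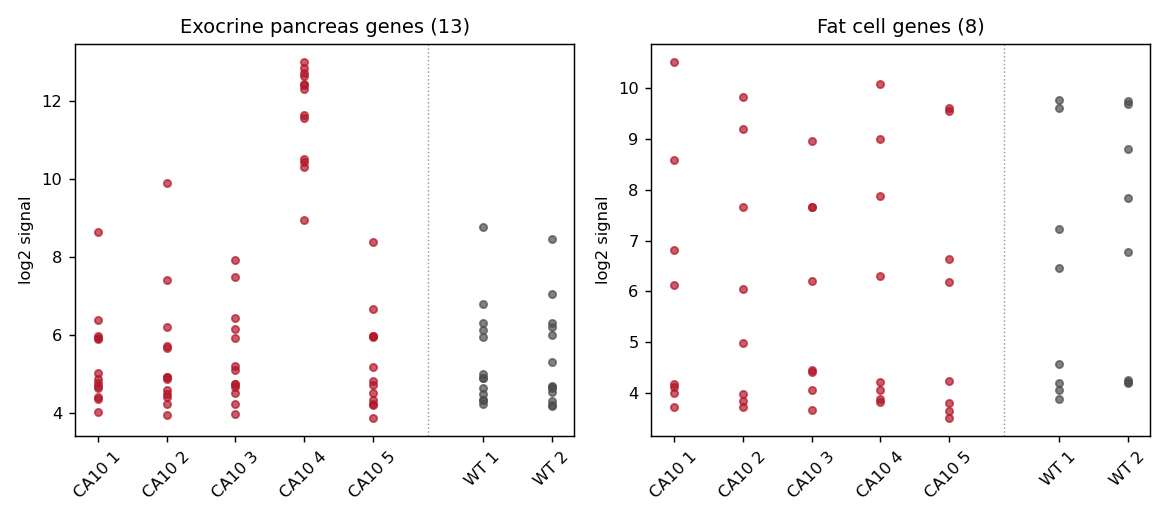
Log2 signals of 13 exocrine pancreas genes (left) and 8 fat cell genes (right) on each array, with CA10 spleens without clinical signs in red and wild-type spleens in grey. The pancreas genes are high in CA10 4 alone, and 4 of the fat cell genes lie above 7 in WT 2, among them Adipoq at 7.83.

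Sex-linked genes were mixed within both groups. Xist, the RNA of the silenced X chromosome, read 11.50 in CA10 spleen 2 and 11.97 in wild-type spleen 1 and between 5.14 and 5.96 in the other 5 arrays, and the Y-linked gene Eif2s3y ran the other way. With the Xist signal as a covariate, Hoxa9 differed by 4.57 and no gene was called. Heat shock genes had a median of 11.999 in CA10 spleen 5 and 9.92 to 10.45 in the other CA10 arrays, against 9.93 and 11.31 in wild type. Hspa1b, an inducible chaperone gene, read 12.37 in CA10 spleen 5 and 6.75 to 7.42 in the others, against 7.02 and 11.30 in wild type. How far tissue at the margin, sex and handling enter the comparison was not tested beyond these values.

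No gene had a CA10 difference in spleen that was called as unlike that in another tissue, with 0% of genes past the adjusted threshold in limma for thymus, lineage-negative marrow and whole marrow. Unadjusted p-values below 0.05 were found for 259 genes (1.69%), 86 genes (0.562%) and 660 genes (4.31%). The whole marrow count depended on which wild-type marrows were used. Array medians were 5.52 to 5.56 in wild-type whole marrows 1 to 3 and 5.69 to 5.72 in 4 to 6. In CA10 whole marrows they were 5.69 to 5.74. With only wild-type whole marrows 4 to 6 used, 129 genes had an unadjusted p below 0.05 in limma and 0 were called. Against thymus, the 6 genes with the smallest p included Car3, with a CA10 difference of −3.08 in spleen and 1.03 in thymus, Cyp2e1, a drug metabolism gene of liver and fat (−0.96 and 3.26), Mfap4 (−1.002 and 0.95) and Dcn (−1.33 and 1.06). Against lineage-negative marrow Slit2, a guidance molecule gene (−0.40 in spleen and 1.44 in marrow), and Alox5ap, a leukotriene synthesis gene (0.80 and −0.93), were among the first 6. Against whole marrow these were skin and other genes such as Lce1a2 (−0.32 and 1.05) and Acer1 (−0.39 and 0.72). Acer1 was under the limit of low signals on 5 of 5 CA10 and 2 of 2 wild-type spleen arrays, and Lce1a2 on none. Cyp2e1 and Slit2 were each under it on 5 of 5 CA10 and 1 of 2 wild-type spleen arrays.

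Over the 19 spleen arrays, which include leukemic mice, the genes most like Hoxa9 in their levels were Mpdu1 (Pearson r of 0.83), Tmed9 (0.79), Ift57 (0.78), Zfp810 (0.77), Gtpbp3 (0.76) and Rtca (0.76). These correlations describe arrays that share groups and platform and carry no test. Mpdu1, a gene of sugar donors in protein glycosylation, read 8.83, 8.16, 8.17, 7.99 and 8.01 in CA10, against 7.92 and 7.53 in wild type (0.51 ± 0.20). Gtpbp3, a gene of mitochondrial tRNA modification, read 7.19, 6.62, 7.18, 6.76 and 6.79, against 6.32 and 5.84 (0.83 ± 0.22). Ift57, a gene of transport in cilia, read 8.24, 7.97, 7.75, 7.21 and 6.81, against 6.63 and 6.83 (0.87 ± 0.33), with 1 CA10 array between the wild-type arrays. These 7 arrays are among those that chose the 6 genes, so a higher level in CA10 follows from the choice. Meis1 was not among the 6.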

How the data were processed

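Total RNA was extracted with Trizol and 100 ng of it was used for biotin labelling, as the protocols describe. The deposited table holds log2 signals that the authors made with RMA, per the submitters' processing notes; the version is not given in the sources used here. The table had 44943 probe sets and 57 arrays, its signals ran between 2.58 and 14.65, and the medians of the arrays lay between 5.44 and 5.85. Nothing read here says whether 1 RMA run covered all arrays. The log2 signals of dim probe sets show compressed differences.

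Of the probe sets, 34842 named 1 gene in the platform annotation and were used; 931 named several, 9106 none, and 64 were controls. Each of 18165 genes took its brightest probe set (8980 genes had more than 1), and 15310 genes lay above the 40th percentile of the array on at least 3 arrays. A limma model (limma 3.58.1, R 4.3.3) held the 4 group means of all 19 spleen arrays, with p-values adjusted by Benjamini-Hochberg and a threshold of 0.05; printed errors are its standard errors. Differences between tissues came from 1 model of all arrays. The model was tested on simulated data. Arrays were called non-overlapping when every CA10 value lay on 1 side of both wild-type values.

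Named genes were the 12 highest and 12 lowest by moderated t among non-overlapping genes with a difference of at least 1 log2 unit (10 were found on the lower side), leaving out clone symbols, all HOXA, cofactor and fusion partner genes, up to 5 per other list by smallest p, 6 per tissue difference, the 8 with the largest SD in CA10, and 6 by correlation with Hoxa9. Genes outside this rule (Nkx2-3, Usp18, Cd14, Pla2g3 and Sh3gl3) were named after their values were seen. The part of the series, the gene lists and the tests were chosen with earlier results of these data known. RefSeq promoters carry the build GRCm38.p6. Alternatives covered the filter, probe sets, normalization, arrays in the model, covariates for Gapdh and Xist, each array left out, and, added after the data were seen, group-wise array weights, low signals raised to the 40th percentile of their array (a rank, not a measured background), an Actb covariate and list medians after quantile normalization.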

Additional observations from a re-analysis of the deposited data

Results flagged for a closer look

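Within the 5 CA10 spleens, 14 of 85 gene or list values had 1 array far from the other 4, measured as the gap to the nearest array divided by the whole range, with a limit of 0.71. Chance flags about 1 in 20 such groups when values are not chosen for their spread, and that rate does not hold for the 8 genes taken for the largest SD over these arrays, of which 7 are among the 14. All 7 are pancreas genes, and with the pancreas list median they make 8 values that rest on 1 array. In CA10 spleen 4 this share was 0.922 for Cel, 0.948 for Cpb1, 0.931 for Clps, 0.948 for Cpa1, 0.895 for Ctrb1, 0.977 for Pnliprp1 and 0.966 for Ctrl, all genes of pancreatic enzymes or their cofactors, and 0.963 for the median of the exocrine pancreas list. Pnliprp1, a lipase gene, read 10.51 in that array and 3.86 to 4.02 in the other 4 CA10 spleens, against 4.34 and 4.22 in wild type.

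In CA10 spleen 1 the monocyte genes Ccr2 (0.761) and Ms4a6d (0.801) stood above the other 4 arrays, with Ms4a6d at 9.87 and the others at 6.59 to 7.24. In CA10 spleen 3 Pbx3 (0.872) stood below the rest, and so did the median of the HOX cofactor list (0.784), at 6.19 against 7.00 to 7.22. In CA10 spleen 5 Car3 was lowest (0.735) and the heat shock list median highest (0.749). The 6 leukemic CA10 spleens had a Pbx3 mean of 6.35 ± 1.66 (SD).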

How the results depend on the processing

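Apart from the array weights and raised signals given below, no gene was called between CA10 and wild-type spleen under any other filter, probe set rule, normalization, covariate or choice of arrays tried for that comparison, and leaving out each of the 7 arrays gave counts from 0 to 0. Unadjusted p-values below 0.05 were found for 134 genes with all 57 arrays in the model and for 730 without CA10 spleen 5, against 387. Only 5 passed a limma treat test at a difference of 0.5 before adjustment. With group-wise array weights, added after the data were seen, 1 gene was called, Hoxa9 at 4.46 with an adjusted p of 0.0284, and 744 genes had an unadjusted p below 0.05. Raising signals under the 40th percentile to it, also added later, gave 1 call, Sh3gl3 (−0.48, adjusted p = 0.00126), a dim gene whose spread this step removes, and Hoxa9 at 3.50 (adjusted p = 0.575). With the Actb 3′ minus 5′ signal as a covariate, added too, no gene was called and Hoxa9 was at 4.18 (adjusted p = 0.507). The Hoxa9 difference ran from 4.18 to 4.63 with 1 array left out, was 2.47 as the mean of its probe sets and 0.47 on the other probe set, and its adjusted p ran from 0.0650 after quantile normalization to 1.00 over the other alternatives. Between spleen and whole marrow, quantile normalization gave 1 call, Lce1a2 (−1.47, adjusted p = 0.0366). Of 30 single genes put through these alternatives, which are a part of the named genes, 4 changed sign on another probe set: Iftap (−0.15, −0.30 and −0.034), Car3 (0.093), Dcn (0.00180) and Hoxa10 (−0.18, and −0.043 with low signals raised). Some named genes outside the 30 also changed sign between probe sets, among them Hoxc5 (−0.25 and 0.43), Pknox1 (0.41 and −0.21) and Meis2 (0.02 and −0.40). Of 315 list medians under alternatives, 9 moved by more than the spread between arrays, among them fat cell genes (−0.55 without wild-type spleen 1 and −0.14 without wild-type spleen 2). That spread was the SD of the list median over the 5 CA10 spleens, which 1 far array widens. The exocrine pancreas list therefore did not count as moved, though its median difference of 1.10 rests on CA10 spleen 4. The count cannot show that lists resting on 1 or 2 arrays are stable.

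With the replicate number as a block, no gene was called, 618 had an unadjusted p below 0.05 and Hoxa9 differed by 4.15 (adjusted p = 0.965). The groups share only the numbers 1 and 2, whose deviations correlated at 0.03 and −0.37. The deviations of 2 wild-type arrays from their mean mirror each other, so these correlations cannot show whether arrays are pairs. The samples share a number and are not known to be pairs.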
